A study of Anas platyrhynchos with 5 samples.

Results

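The miRNAs described are 9 mature sequences from 5 miRNA families with a known link to melanocytes in other species, miR-125b, miR-148a, miR-193b, miR-222a and miR-101, with the hairpin of miR-204 set aside. They were chosen by name out of 134 distinct mature names, though with earlier results of these data known, and all 9 were listed in every library. Small RNA was sequenced from feather bulbs, the growing base of the feather, of ducks (Anas platyrhynchos) 12 months old. The 2 libraries of black bulbs came from the pure black Cui Hei breed and from the Kaiya-Liancheng F2 generation. The 3 libraries of white bulbs came from the same F2 generation and from the pure white Kaiya and Liancheng breeds. The labels give the plumage of both F2 libraries as white-black, and do not say whether both colours of bulb were taken from the same birds. Each library is a pool, of 3 bulbs per duck and then of the ducks of 1 breed, so the p-values given here measure the spread between 5 pools that also differ in breed. The number of ducks in a pool was not given in the sources used here.

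Melanocytes settle in the feather bulb and pass pigment granules to the keratinocytes that form the barbs. Their identity rests on MITF, the transcription factor that switches on the pigment enzymes, and on signalling through the receptor KIT. A miRNA is cut from a hairpin and lowers the output of mRNAs that pair with its seed, bases 2 to 8. In human melanoma cells miR-148a and miR-101 lower MITF itself, miR-193b lowers cyclin D1, a driver of cell division, and miR-222 lowers KIT. miR-125b has been tied to growth arrest of human melanoma cells and to pigment production in cultured mammalian melanocytes. None of these miRNAs is specific to melanocytes.

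The mature sequences are shown because their seeds determine which targets each could share with another miRNA. They are given 5′ to 3′ with the seed in capitals, as the deposited tables list them.
miR-125b-5p: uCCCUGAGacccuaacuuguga
miR-125b-3p: aCAAGUCAggcucuugggacc
miR-148a-3p: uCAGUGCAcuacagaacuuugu
miR-148a-5p: aAAGUUCUgugacacuccgacu
miR-193b-3p: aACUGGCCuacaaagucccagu
miR-193b-5p: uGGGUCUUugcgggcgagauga
miR-222a-3p: aGCUACAUcuggcuacugggucuc
miR-101-1,2-3p: gUACAGUAcugugauaacuga
miR-101-1-5p: cAGUUAUCacagugcugaugc
The 9 seeds all differ, and no other of the 134 names carries one of them. The sequences are 21 to 24 bases long, and their GC content runs from 38.1% in miR-101-1,2-3p to 59.1% in miR-193b-5p, around a median of 45.6% over all names. In the Kaiya table the sequence cells of mir-193b are shifted by 1 line, so the sequences listed for its arms are those of the other 4 tables. The genomic positions of the hairpins and the genome build are not given in the sources used here.

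Together the 9 miRNAs took 4.30% of the mature miRNA reads in the Cui Hei library and 4.79% in the black F2 library. In white bulbs they took 4.01% in Kaiya, 4.42% in Liancheng and 5.27% in white F2. Most of this was miR-148a-3p, with 60.4% to 71.5% of the members' reads. Without it the other 8 took 1.70% and 1.70% in the black libraries, and 1.58%, 1.47% and 1.504% in the white libraries in the same order. These shares use library size alone, and this sum was not computed with another scaling. With library size alone 14% of all miRNAs lay higher in both black libraries than in every white one, and 2.63% lower. Levels are given as TMM-normalised CPM, the library's reads scaled to a common total, and each library's counting interval is the exact Poisson interval at the 95% level, which covers counting error only.

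Depth ranged from 1601329 reads in Liancheng to 4269854 in Kaiya, and 3 reads, taken as the floor, equal 0.703 to 1.87 CPM before TMM scaling. Of the markers of melanocytes, miR-204-5p stood at 11695 and 8785 CPM in Cui Hei and black F2, against 104, 120 and 106 CPM in Kaiya, Liancheng and white F2, and no miR-211 was analysed here. Of the keratinocyte and epithelial list miR-141 and miR-203 were not listed. The other 4 families were abundant in all libraries, at 103231 and 116088 CPM summed in black and 106838 to 128005 CPM in white bulbs. Of the leukocyte list only both arms of miR-146b were listed, and not the defining miR-142, miR-223 and miR-155; their sum was 96003 CPM in white F2, against 48802 to 67314 CPM in the other 4. The muscle list (miR-499 alone) and the neural list (miR-9 alone) were also highest in white F2, at 79.1 and 664 CPM. White F2 had the lowest TMM factor too (0.920, against 0.963 to 1.07). In the dermal mesenchyme (miR-214 and miR-22 alone), endothelium and erythroid lists, however, white F2 lay inside the range of the other 4 libraries. The erythroid list (miR-144 alone) was higher in both black libraries, at 455 CPM in Cui Hei and 391 CPM in black F2, than in every white one. Its highest white level was 277 CPM, in Kaiya. In the melanocyte list both arms of miR-204 were called by colour. No miRNA of the other lists was called by colour, and none of any list by stock. Over 114 miRNAs tested, with TMM, white F2 was the highest or the lowest library for 56.1%, and for 7 of the 9 members, and Kaiya for 40.4%, and for 6 of the 9 members. With library size alone the members' counts were 8 for white F2 and 4 for Kaiya, beside 57.9% and 41.2% of all. With DESeq2 size factors they were 7 and 5, beside 58.8% and 40.4%.

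No member was called by bulb colour. None of the 9 passed the black against white test of edgeR, which called 1.75% of the 114 miRNAs, both arms of miR-204 alone, and 3.51% at an unadjusted p under 0.05. In none of them did both black libraries lie on 1 side of all 3 white ones, which happened for 14.9% of all miRNAs (7.02% higher and 7.89% lower in black). With library size alone miR-222a-3p and miR-101-1-5p were higher in both black libraries than in every white one, where 14% of all miRNAs were, and with DESeq2 size factors miR-101-1-5p was (7.02% of all). The members' median log2 fold change, with TMM, was -0.04, beside -0.03 over all miRNAs. The members' adjusted p-values were all 0.971. With library size alone the median over all miRNAs was 0.10, a shift of the whole set, and 7 of the 9 members lay above 0, where 4 did with TMM. In pooled bulbs a smaller number of cells of a type and less RNA per cell cannot be told apart.

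**Figure D1:**
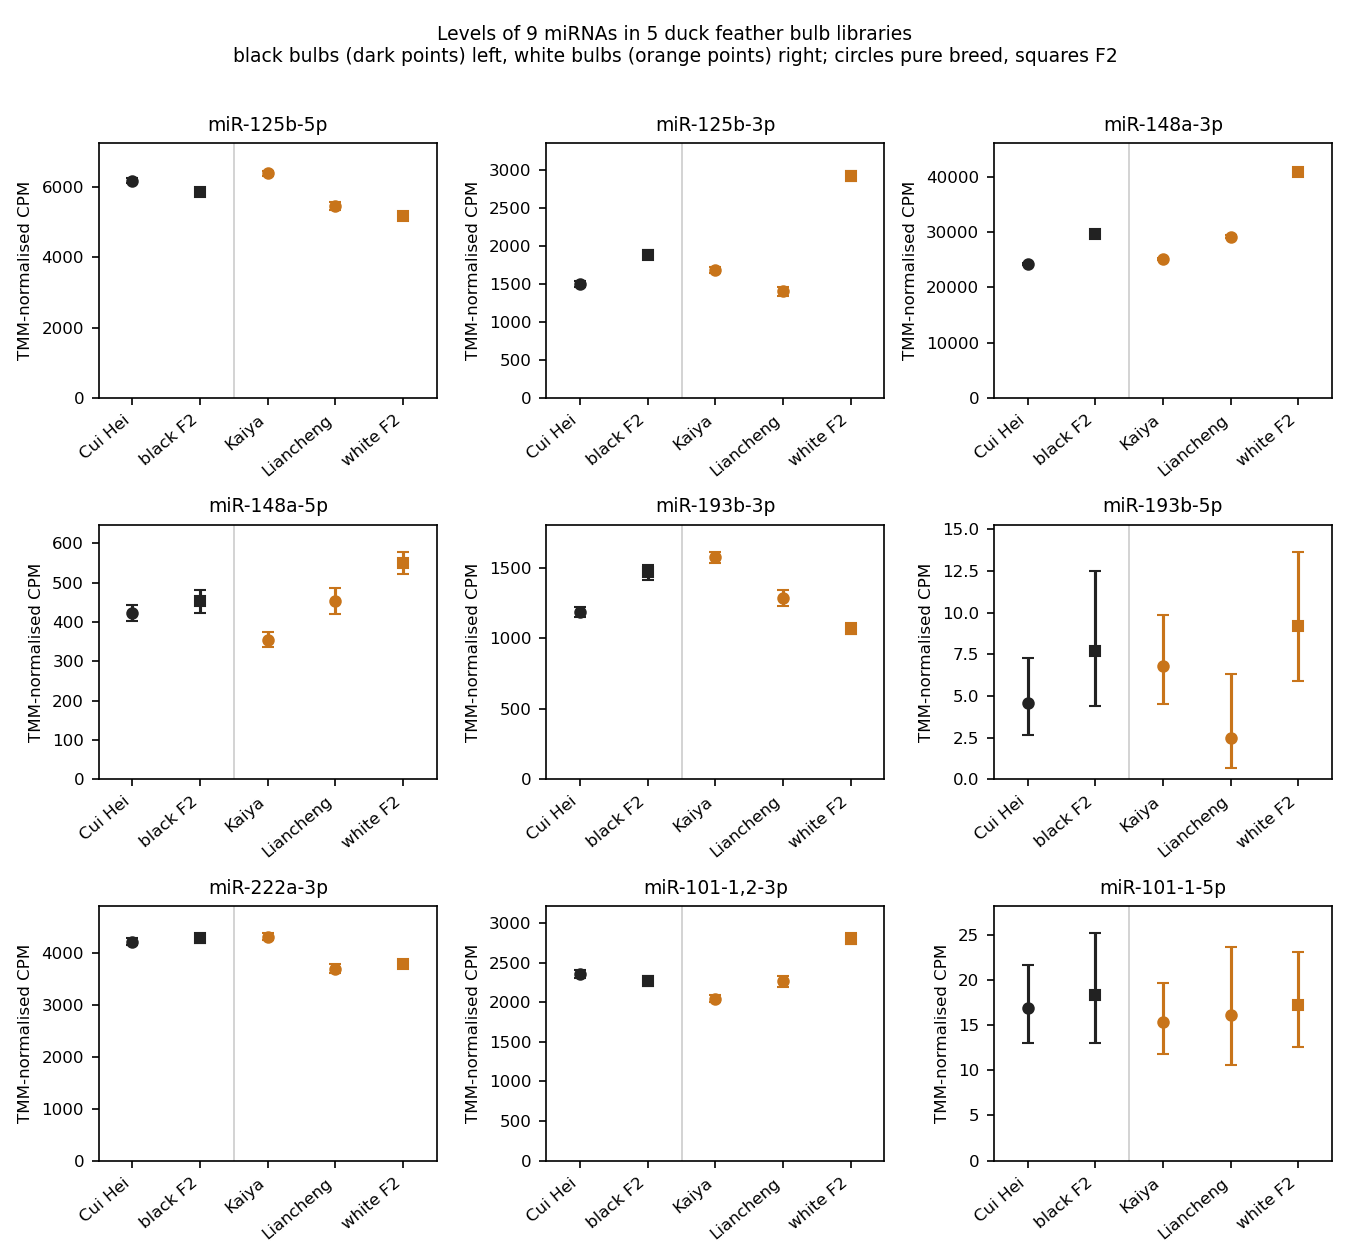
Each panel plots 1 miRNA, with TMM-normalised CPM on a linear axis from 0 and the 5 libraries along the bottom, and bars give the exact Poisson counting interval. Black bulbs are on the left of each panel and white bulbs on the right; white F2 is the highest point for miR-125b-3p (2926 CPM) and miR-148a-3p (40922 CPM) and the lowest for miR-125b-5p (5170 CPM).

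miR-148a-3p, which lowers MITF in human melanoma cells, was the most abundant member. It stood at 24247 CPM in Cui Hei and 29661 CPM in black F2, against 25203 CPM in Kaiya, 29220 CPM in Liancheng and 40922 CPM in white F2. The colours overlapped, with white F2 alone well above the rest and, with TMM, Cui Hei lowest. It averaged 26954 ± 3828 CPM over the black libraries (SD, n = 2), against 31782 ± 8167 CPM over the white libraries (SD, n = 3). The log2 fold change, black over white, was -0.24 ± 0.25 (SE; adjusted p 0.971 by edgeR), and without white F2 it was -0.026. It ranked 12th or 13th of the 134 names in every library, and its highest level was 1.69 times its lowest. Only black F2 and Liancheng, next to each other in the order of levels, had overlapping counting intervals.

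Its partner arm, miR-148a-5p, stood at 422 and 452 CPM in Cui Hei and black F2, against 355, 452 and 549 CPM in Kaiya, Liancheng and white F2. White F2 was again highest, but here Kaiya was lowest, and the counting intervals of black F2, Liancheng and Cui Hei overlapped from one to the next. Its log2 fold change, black over white, was -0.05 ± 0.23 (SE), and with library size alone 0.091. Both arms come from 1 hairpin and are not independent of each other.

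miR-101, the other miRNA that lowers MITF in human melanoma cells, has 2 hairpins in these tables, shown because their 3p arms are identical while their 5p arms are not. The arms are in capitals.
mir-101-1: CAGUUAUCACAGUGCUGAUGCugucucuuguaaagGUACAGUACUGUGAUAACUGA
mir-101-2: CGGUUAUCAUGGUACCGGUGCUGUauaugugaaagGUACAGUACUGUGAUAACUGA
The 5p arms differ at 6 of the 21 bases compared from the 5′ end. A read of miR-101-1,2-3p therefore cannot be assigned to either hairpin, while the 5p arms can be told apart.

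miR-101-1,2-3p stood at 2355 CPM in Cui Hei and 2272 CPM in black F2, against 2045 CPM in Kaiya, 2262 CPM in Liancheng and 2805 CPM in white F2. Both black libraries lay inside the range of the white ones, of which Kaiya was lowest and white F2 highest. The counting intervals of Cui Hei, black F2 and Liancheng overlapped, each with the next. The log2 fold change, black over white, was -0.04 ± 0.18 (SE; adjusted p 0.971 by edgeR), and 0.10 with library size alone.

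The 5p arm of the first hairpin, miR-101-1-5p, had 63 and 38 reads in Cui Hei and black F2, and 63, 26 and 45 reads in Kaiya, Liancheng and white F2. These equal 16.9 and 18.3 CPM in black and 15.3, 16.1 and 17.2 CPM in white bulbs. All neighbouring counting intervals overlapped, and its log2 fold change was 0.12 ± 0.22 (SE). The 5p arm of the second hairpin, miR-101-2-5p, had 0 and 0 reads in Cui Hei and black F2, and 1, 1 and 3 in Kaiya, Liancheng and white F2. None of these exceeded the floor of 3 reads.

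miR-222a-3p, whose mammalian counterpart lowers the melanoblast receptor KIT, had, with TMM, the narrowest range of the leading arms, 1.17-fold. It stood at 4227 and 4290 CPM in Cui Hei and black F2, against 4325, 3710 and 3793 CPM in Kaiya, Liancheng and white F2. Kaiya, black F2 and Cui Hei overlapped from one to the next in their counting intervals, and so did white F2 and Liancheng below them. It averaged 4259 ± 44.4 CPM over the black libraries (SD, n = 2), against 3942 ± 334 CPM over the white libraries (SD, n = 3), with a log2 fold change of 0.11 ± 0.14 (SE; adjusted p 0.971 by edgeR). Its SD over the 5 libraries was 0.11 on the log2 CPM scale, the 10th lowest of 114, beside a median of 0.26. The partner arm, miR-222a-5p, which is not a member, stood at 95.045 and 105 CPM in black and at 94.8, 93.5 and 99.7 CPM in white bulbs, in the same order of libraries.

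miR-193b-3p, which lowers cyclin D1 in human melanoma cells, had no common order by colour. It stood at 1187 CPM in Cui Hei and 1468 CPM in black F2, against 1574 CPM in Kaiya, 1283 CPM in Liancheng and 1068 CPM in white F2. No neighbours in the order of levels had overlapping counting intervals. It averaged 1328 ± 198 CPM over the black libraries (SD, n = 2), against 1308 ± 254 CPM over the white libraries (SD, n = 3), a smaller difference than either spread. The log2 fold change was 0.02 ± 0.22 (SE; adjusted p 0.971 by edgeR).

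The rare arm miR-193b-5p had 17 and 16 reads in Cui Hei and black F2, and 28, 4 and 24 in Kaiya, Liancheng and white F2. This gave 4.56 and 7.71 CPM in black and 6.81, 2.48 and 9.17 CPM in white bulbs. Every neighbouring pair had overlapping counting intervals, and the log2 fold change of -0.11 ± 0.53 (SE) had the widest error of the members.

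miR-125b-5p stood at 6178 CPM in Cui Hei and 5870 CPM in black F2, against 6389 CPM in Kaiya, 5449 CPM in Liancheng and 5170 CPM in white F2. With TMM the black libraries lay between Kaiya and Liancheng. It averaged 6024 ± 217.8 CPM over the black libraries (SD, n = 2), against 5669 ± 639 CPM over the white libraries (SD, n = 3), with a log2 fold change of 0.088 ± 0.15 (SE; adjusted p 0.971 by edgeR). Its SD of 0.13 (log2 CPM) over the 5 libraries was the 16th lowest of 114.

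The 3p arm of the same hairpin, miR-125b-3p, had another order. It stood at 1499 and 1882 CPM in Cui Hei and black F2, against 1682, 1404 and 2926 CPM in Kaiya, Liancheng and white F2. A single white library was far above the other 4, which lay within 1404 to 1882 CPM. The log2 fold change, black over white, was -0.25 ± 0.34 (SE; adjusted p 0.971 by edgeR), and 0.12 without white F2. The SD over the 5 libraries was 0.42 (log2 CPM), rank 91 of 114 from the lowest.

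The arms of mir-125b are shown in capitals in the hairpin, because the balance between them was farthest from the other libraries in white F2.
mir-125b: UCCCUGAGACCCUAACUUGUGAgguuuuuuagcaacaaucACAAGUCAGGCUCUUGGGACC
The 3p arm made up 24.3% of the reads of both arms in black F2 (95% Clopper-Pearson interval 23.6% to 24.9%) and 36.1% in white F2 (35.5% to 36.8%). In the pure breeds it made up 19.5% in Cui Hei (19.1% to 19.99%), 20.8% in Kaiya (20.4% to 21.3%) and 20.5% in Liancheng (19.7% to 21.3%). Both F2 libraries thus lay above the 3 pure breeds, and white F2 above black F2, beyond counting error. The sum of both arms differed less, at 7677 and 7752 CPM in Cui Hei and black F2 and 8071, 6853 and 8096 CPM in Kaiya, Liancheng and white F2, a 1.18-fold range.

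On the log2 scale the ratio of 5p to 3p reads of mir-125b was 1.23 ± 0.58 in F2 (SD, n = 2) and 1.97 ± 0.06 in pure breeds (SD, n = 3). The difference of -0.74 ± 0.28 (SE) did not pass (adjusted p 0.240 by limma), and was -0.33 without white F2 and -1.15 without black F2. This comparison by stock, meaning F2 or pure breed, was added after the shares had been seen. It called 0% of 46 hairpins, with 17.4% at an unadjusted p under 0.05, and in 32.6% of them the F2 libraries did not overlap with the pure breeds. By colour the log2 ratio averaged 1.84 ± 0.28 over the black libraries (SD, n = 2), against 1.57 ± 0.65 over the white libraries (SD, n = 3), and the difference was 0.27 ± 0.40 (SE; adjusted p 0.943 by limma). The limma test by colour called 2.17% of the 46 hairpins, mir-204 alone, with 6.52% at an unadjusted p under 0.05, and in 13% the colours did not overlap.

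In the other hairpins 1 arm held nearly all reads. The 5p share of mir-148a was 1.71% and 1.502% in Cui Hei and black F2, and 1.39%, 1.52% and 1.32% in Kaiya, Liancheng and white F2. That of mir-222a was between 2.15% and 2.56%, and the reads of miR-101-1-5p were 0.609% to 0.799% of those of this arm and miR-101-1,2-3p together. Since the 3p arm belongs to both mir-101 hairpins, this is not an arm share of mir-101-1 alone. The 5p share of mir-193b was 0.522% and 0.851% in black F2 and white F2, against 0.383%, 0.431% and 0.193% in Cui Hei, Kaiya and Liancheng. Its log2 difference, F2 minus pure, of 1.04 ± 0.38 (SE; adjusted p 0.240 by limma) rests on 4 to 28 reads of the 5p arm per library. None of these 4 hairpins passed by colour (adjusted p 0.943 each by limma).

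**Figure D2:**
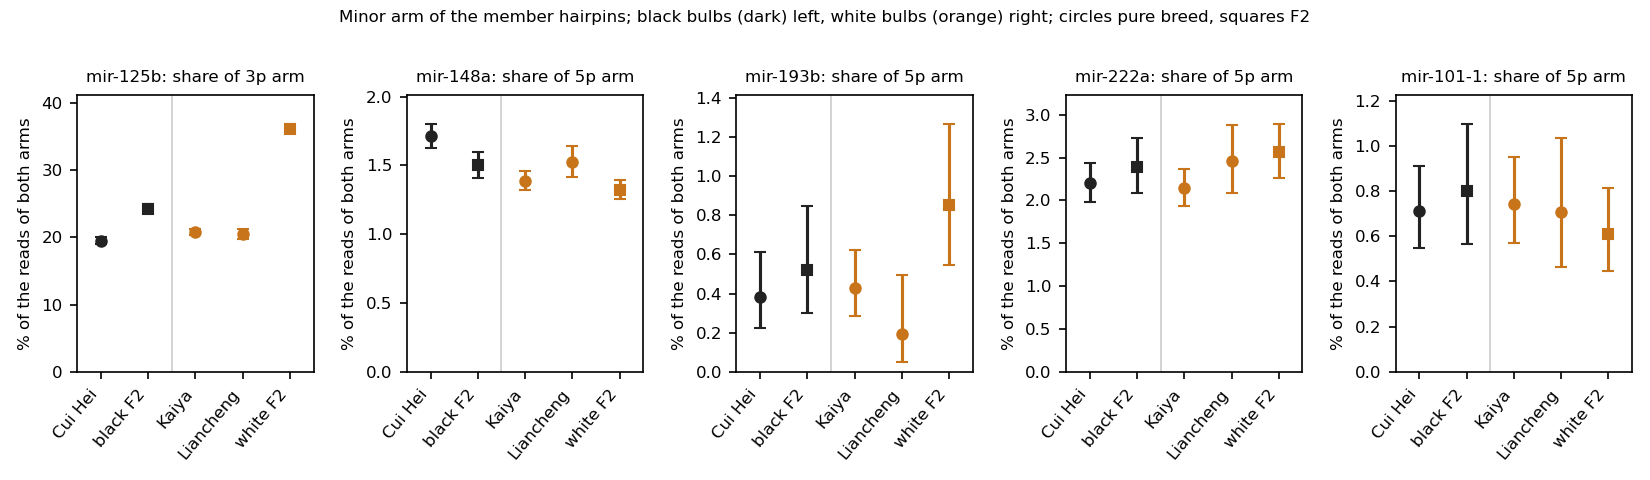
Each panel plots, for 1 hairpin, the share of its rarer arm in the reads of both arms (%), with exact Clopper-Pearson intervals, for the 5 libraries, black bulbs left and white bulbs right. The 3p arm of mir-125b reached 36.1% in white F2 and 19.5% to 24.3% in the other libraries, while the rarer arms of the other hairpins stood at 2.56% or less; for mir-101-1 the 3p reads are shared with mir-101-2.

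By stock, too, no member was called. The edgeR test of F2 against pure breeds, which uses the same 5 libraries as the colour test, called 0% of 114 miRNAs; 6.14%, or 7 miRNAs, had an unadjusted p under 0.05, and DESeq2 called 0 with 10 at that level. The members' median log2 fold change, F2 over pure, was 0.19, beside 0.03 over all miRNAs, and 6 of 9 lay above 0. For 5 members both F2 libraries lay above all 3 pure breeds, and for none below, where 28.9% of all miRNAs did not overlap, 18.4% lying above and 10.5% below. They were both arms of miR-148a, miR-125b-3p, miR-193b-5p and miR-101-1-5p, the last of which overlapped with library size alone and with DESeq2 size factors. Only in miR-125b-3p were the counting intervals of both F2 libraries clear of those of every pure breed. Among all miRNAs the share with such clear intervals was not computed. The intervals of black F2 and Liancheng overlapped in miR-148a-3p (29661 and 29220 CPM) and miR-148a-5p (452 and 452 CPM). In miR-193b-5p and miR-101-1-5p all neighbours in the order of levels overlapped.

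miR-125b-3p had the smallest p of the members, with 2404 ± 738 CPM in F2 (SD, n = 2), against 1528 ± 141.3 CPM in pure breeds (SD, n = 3). Its log2 fold change was 0.65 ± 0.22 (SE; adjusted p 0.627 by edgeR), and 0.28 without white F2. miR-148a-3p had 35292 ± 7963 CPM in F2 and 26223 ± 2639 CPM in pure breeds, a log2 fold change of 0.43 ± 0.18 (SE; adjusted p 0.627 by edgeR) that was 0.16 without white F2. For miR-148a-5p it was 0.29 ± 0.17 (SE) and 0.13 without white F2, and for miR-193b-5p 0.80 ± 0.45 (SE), 0.64 without white F2 and 0.46 without Liancheng. The part of white F2 in these values was not tested beyond leaving it out.

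The other members lay nearer to 0 by stock. miR-101-1,2-3p had a log2 fold change, F2 over pure, of 0.19 ± 0.15 (SE), which was 0.013 without white F2, and miR-101-1-5p of 0.14 ± 0.20. Those of miR-125b-5p, miR-193b-3p and miR-222a-3p were negative, at -0.12 ± 0.14, -0.09 ± 0.21 and -0.02 ± 0.14 (SE). That of miR-125b-5p was -0.32 without black F2 and -0.057 without white F2. miR-222a-3p averaged 4041 ± 352 CPM in F2 (SD, n = 2) and 4087 ± 330 CPM in pure breeds (SD, n = 3), a smaller difference than either spread.

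**Figure D3:**
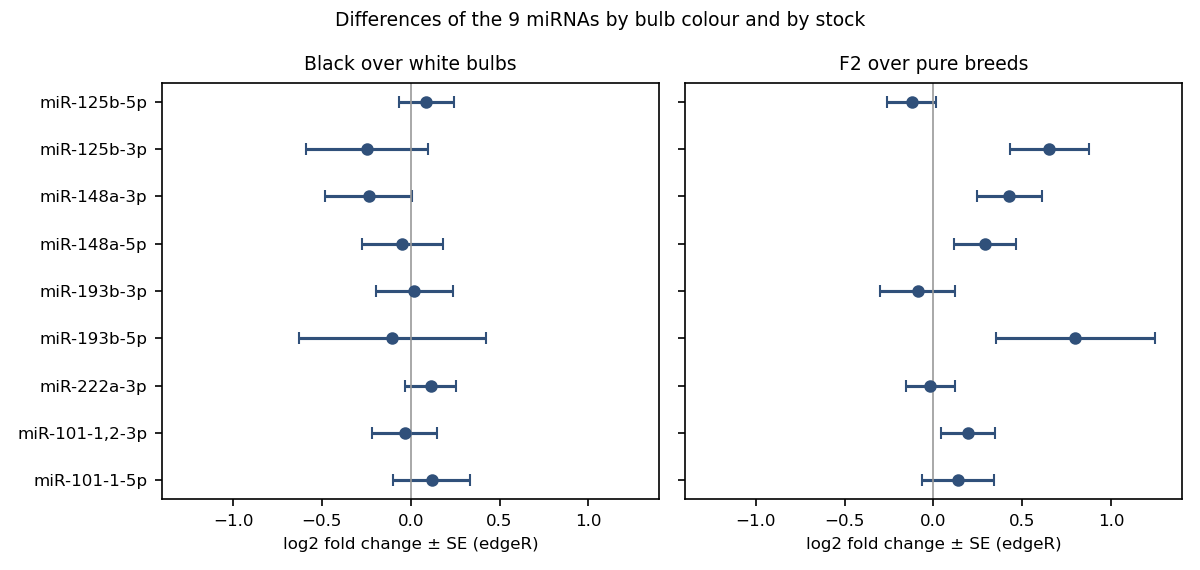
The log2 fold changes of the 9 miRNAs are plotted with their SE from edgeR, black over white bulbs on the left and F2 over pure breeds on the right. By colour all 9 values lie between -0.25 and 0.12; by stock they run from -0.12 to 0.80, and none passed in either comparison.

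Within the F2 generation, where both colours share a stock, 3 of the 8 members with at least 50 reads were higher and 4 lower in black F2 than in white F2 with a counting interval that excluded 0, as in 69.2% of 104 miRNAs (29.8% higher and 39.4% lower). With library size alone 3 were higher and 3 lower, beside 44.2% and 21.2% of all. With 1 library per colour there is no test, and the interval leaves out the spread between birds. The lowest was miR-125b-3p at a log2 ratio, black F2 over white F2, of -0.64 (interval -0.69 to -0.58), from 3907 and 7656 reads, followed by miR-148a-3p at -0.46 (-0.48 to -0.45). miR-101-1,2-3p had -0.30 (-0.36 to -0.25) and miR-148a-5p -0.28 (-0.40 to -0.16). These 4 ratios were nearer to 0 with library size alone, at -0.45, -0.28, -0.12 and -0.097, the last with an interval that included 0 (-0.22 to 0.023).

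On the higher side, miR-193b-3p had a log2 ratio of black F2 over white F2 of 0.46 (0.38 to 0.53), miR-125b-5p of 0.18 (0.15 to 0.22) and miR-222a-3p of 0.18 (0.14 to 0.22). These 3 were farther from 0 with library size alone, at 0.64, 0.37 and 0.36. Of the 8 members with at least 50 reads in the pair, none had a log2 ratio of 1 or more either way, the series' own criterion of size, which 4.81% of 104 miRNAs with at least 50 reads did. The ratio of miR-125b-3p was larger in size than 86.5% of them and that of miR-222a-3p larger than 31.7%. miR-193b-5p had fewer reads, 16 reads in black F2 and 24 in white F2. For comparison, the log2 ratio of miR-204-5p was 6.37.

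The pure breeds give a further pair of colours, in which colour and breed cannot be told apart. For Cui Hei over the mean of Kaiya and Liancheng the log2 ratios of the 8 members with at least 50 reads ran from -0.27 (miR-193b-3p) to 0.13 (miR-101-1,2-3p). None reached 1, where 6.36% of 110 miRNAs did. For miR-125b-5p and miR-222a-3p the sign depended on the white breed with TMM, with -0.05 to Kaiya and 0.18 to Liancheng for miR-125b-5p, and -0.03 and 0.19 for miR-222a-3p. The sign also depended on the breed for miR-125b-3p (-0.17 and 0.094) and miR-148a-5p (0.25 and -0.099). For the last, the interval to Liancheng included 0 (-0.23 to 0.030). With library size alone Cui Hei lay above both white breeds in miR-125b-5p, at 0.10 and 0.27, and in miR-222a-3p, at 0.12 and 0.28. miR-148a-3p was lower in Cui Hei than in Liancheng, at -0.27 (-0.29 to -0.25). To Kaiya its ratio was -0.06 (-0.07 to -0.04) with TMM and 0.097 (0.084 to 0.11) with library size alone, so its sign turned with the scaling.

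Kaiya and Liancheng are both white, so colour does not differ between them. Kaiya was higher than Liancheng in miR-193b-3p (log2 ratio 0.29, interval 0.22 to 0.37), miR-125b-3p (0.26, 0.19 to 0.33), miR-125b-5p (0.23, 0.19 to 0.26) and miR-222a-3p (0.22, 0.18 to 0.26). It was lower in miR-148a-5p (-0.35, -0.48 to -0.22), miR-148a-3p (-0.21, -0.23 to -0.20) and miR-101-1,2-3p (-0.15, -0.20 to -0.09). The counting interval of this pair excluded 0 for 67.3% of 104 miRNAs (28.8% higher and 38.5% lower in Kaiya). Of the 8 members with at least 50 reads, none had a log2 ratio of 1 or more either way, where 13.5% of 104 miRNAs did, and the median absolute log2 ratio of those was 0.28. miR-193b-5p, with 28 reads in Kaiya and 4 in Liancheng, had 1.31 with a counting interval that included 0 (-0.057 to 3.43), and that excluded it with DESeq2 size factors (0.032 to 3.52).

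White F2 set against the white parental breeds keeps bulb colour the same. White F2 was higher than both in miR-125b-3p, with log2 ratios of 0.80 (interval 0.75 to 0.85) over Kaiya and 1.06 (0.99 to 1.13) over Liancheng. The ratio over Liancheng reached 1, the series' own criterion of size, as did 9 of 103 miRNAs either way. With library size alone it was 0.93. White F2 was also higher than both in miR-148a-3p (0.70 and 0.49), miR-148a-5p (0.63 and 0.28) and miR-101-1,2-3p (0.46 and 0.31). It was lower than both in miR-193b-3p (-0.56 and -0.26) and miR-125b-5p (-0.31 and -0.076), each beyond counting error. Over Kaiya the counting interval excluded 0 for 74.5% of 106 miRNAs (46.2% higher and 28.3% lower in white F2). Over Liancheng it did so for 72.8% of 103 (35.9% higher and 36.9% lower). For miR-222a-3p the ratio was -0.19 over Kaiya and 0.032 over Liancheng, the second with an interval that included 0 (-0.015 to 0.078) and -0.10 with library size alone. The rare arm miR-193b-5p, with 24 reads in white F2 and 4 in Liancheng, had 1.75 over Liancheng (0.35 to 3.88). Over Kaiya it had 0.43, with an interval that included 0 (-0.42 to 1.27).

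In the black bulbs, black F2 over Cui Hei gave log2 ratios of 0.33 (0.27 to 0.39) for miR-125b-3p, 0.31 (0.24 to 0.37) for miR-193b-3p and 0.29 (0.28 to 0.31) for miR-148a-3p. For miR-125b-5p the ratio was -0.074 (-0.11 to -0.042) and for miR-101-1,2-3p -0.052 (-0.10 to -0.00079). The intervals of miR-222a-3p (0.021), miR-148a-5p (0.099), miR-101-1-5p (0.12) and miR-193b-5p (0.76) included 0. In black F2 over Cui Hei the interval excluded 0 for 56.6% of 106 miRNAs (29.2% higher and 27.4% lower in black F2). In miR-125b-3p and miR-148a-3p, F2 was thus above the pure breeds of its own bulb colour in both colours beyond counting error. These ratios use the same libraries as the test by stock. The share of all miRNAs with F2 above in both colours in this way was not computed.

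**Figure D4:**
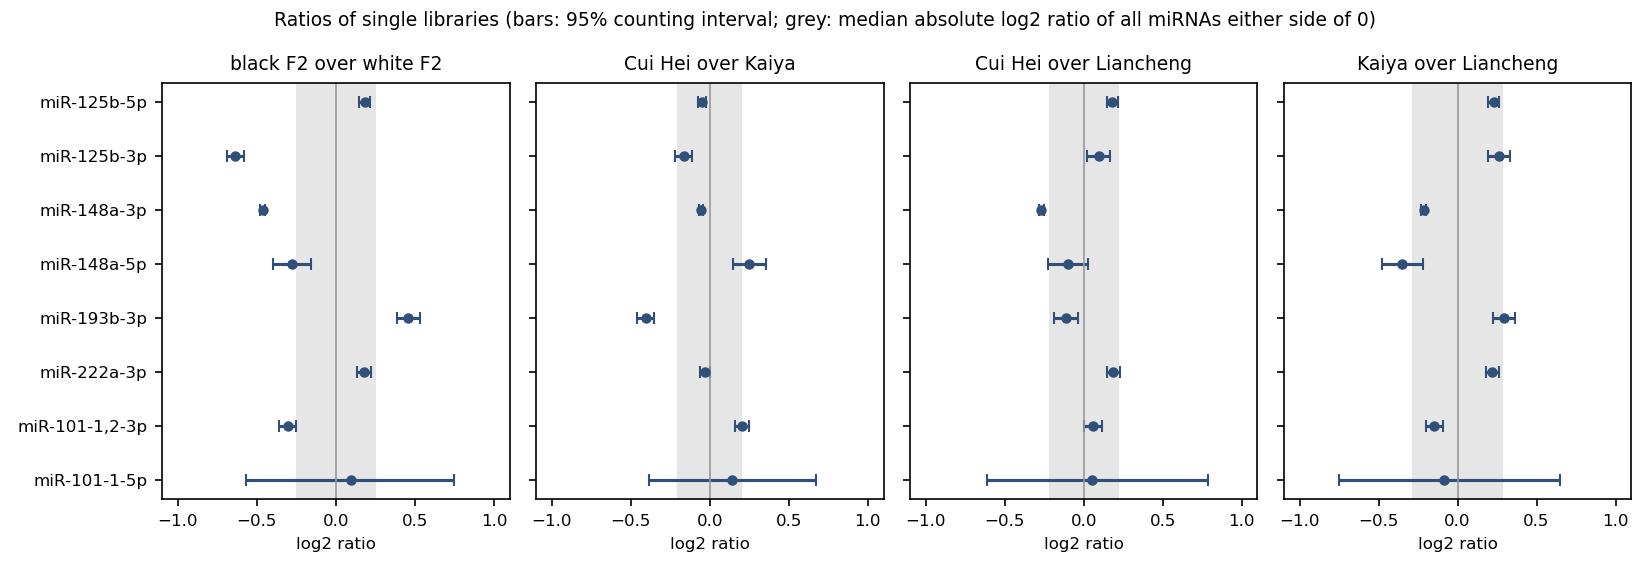
The log2 ratios of 8 miRNAs between single libraries are plotted with counting intervals at the 95% level; the grey band reaches as far from 0 as the median absolute log2 ratio of all miRNAs with at least 50 reads in the pair. The ratios of black F2 over white F2 run from -0.64 to 0.46 and those of Cui Hei over Kaiya from -0.41 to 0.25.

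The pattern of each leading arm over the 5 libraries was set against those of other miRNAs. Likeness was measured as the root-mean-square difference of log2 CPM, each centred on its own mean over the 5 libraries, over 89 other miRNAs with at least 50 reads in every library. Nearest to miR-125b-5p were miR-222a-3p (0.052), miR-130a-3p (0.063) and miR-30e-2-5p (0.070), beside a median of 0.25 over all. Nearest to miR-222a-3p were miR-130a-3p (0.045), miR-125b-5p (0.052) and miR-99a-5p (0.064). The measure is not scaled by spread, so miRNAs that vary little lie near each other whatever their order of libraries. The SD of miR-125b-5p was the 16th lowest of 114 and that of miR-222a-3p the 10th lowest. Both miR-125b-5p and miR-222a-3p stood above their own mean in Cui Hei, black F2 and Kaiya and below it in Liancheng and white F2.

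miR-148a-3p lay nearest to miR-1552-5p (0.078), to a 3p arm without a family number (0.091) and to miR-146b-1,2-5p (0.115). For miR-101-1,2-3p the nearest were miR-6612-3p (0.046), miR-103-2-3p (0.078) and miR-148a-5p (0.084). The nearest to miR-193b-3p were miR-138-1,2-5p (0.097), miR-30e-2-5p (0.142) and miR-125b-5p (0.149).

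Of 24 further families linked to melanocytes, 5 were listed, with 10 mature names, 8 of them tested. By colour 2 of these 8 were called higher in black bulbs, the arms of miR-204, and none lower. The others by log2 fold change, black over white, were miR-218-5p at 0.03 ± 0.18 (SE), miR-21-5p at -0.26 ± 0.33, miR-21-3p at 0.06 ± 0.32, miR-196-1,2,3-5p at 0.10 ± 0.43, miR-9-5p at -0.34 ± 0.19 and miR-9-3p at -0.33 ± 0.29. By stock none of the 8 was called, and miR-196-1,2,3-5p was lowest at -0.84 ± 0.28 (adjusted p 0.627 by edgeR), with 3546 and 1947 CPM in black F2 and white F2 against 4873, 5154 and 4712 CPM in Cui Hei, Kaiya and Liancheng.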

How the data were processed

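The authors deposited raw read counts for each mature miRNA and hairpin, and these counts were used. Per the series' design text the reads were analysed with miRDeep2 2.1.2, and the submitters' processing notes also name FastQC and Bowtie 0.12.2. Per the file headers a mature read lies within the mature sequence, in 3 of the 5 headers with a margin around it. The deposited CPM were checked to equal the count over the table's total within 0.00499 and were not used further. Where several hairpins list a name, only its line with most reads was kept. A name not listed in Kaiya was taken as 0; this touched no member.

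Black was compared with white, and F2 with pure breeds, with edgeR 4.0.16 (quasi-likelihood test, R 4.3.3), using TMM, filterByExpr and Benjamini-Hochberg adjustment over all 114 miRNAs, at a threshold of 0.05. All 9 members passed the filter. The SE is the log2 fold change divided by the root of its F value. Log2 ratios of 5p to 3p reads (pseudocount 0.5, at least 50 reads per arm) were tested with limma 3.58.1. Ratios of single libraries have no test. The edgeR tests by colour and by stock and the limma test by colour were tested on simulated data. The limma test by stock and the DESeq2 test were not. The simulated hairpins had arms near balance, unlike all member hairpins, of which mir-125b came nearest to balance. Alternatives were other scalings and filters, the DESeq2 1.42.0 Wald test, a replicate block, summed lines and each library left out. The members, the lists and the rule for named miRNAs (the members, called miRNAs, nearest patterns, the further list at 10 CPM or more) were chosen with earlier results of these data known. The floor of 3 reads and all intervals cover counting error only, since reads carry no molecular identifiers.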

Additional observations from a re-analysis of the deposited data

Results flagged for a closer look

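In miR-193b-3p the colours differed in opposite directions in the 2 stocks: the log2 ratio of black F2 over white F2 was 0.46, while Cui Hei lay below both Kaiya (-0.41) and Liancheng (-0.11), each beyond counting error with TMM. With library size alone the ratio to Liancheng was -0.025 (-0.10 to 0.051), within counting error. In miR-101-1,2-3p the ratio of black F2 over white F2 was -0.30, while Cui Hei lay above Kaiya (0.20) and Liancheng (0.06, counting interval 0.0021 to 0.11). With TMM the counting interval excluded 0 for 69.2% of all miRNAs in black F2 over white F2. For Cui Hei over Kaiya and over Liancheng the shares were 70.6% and 64.8%. In neither miRNA was the difference between the stocks tested, and the share of all miRNAs with such opposite directions was not computed. Reads on the mir-222a hairpin outside its listed mature sequences, which no comparison used, numbered 4 in Kaiya and 4 in white F2, just above the floor of 3 reads. The other libraries had 1 to 3.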

How the results depend on the processing

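No member was called under any alternative run, by colour or by stock. The colour test called 2 miRNAs under every alternative with all 5 libraries, the replicate block by stock included (2 calls), and 2 to 3 when a library was left out; the stock test called 0 under all of them, the replicate block by colour included (0 calls). The block changed no call. Only the F2 stock gives a pair, and labels give no replicate numbers. By colour, log2 fold changes near 0 changed sign: with library size alone miR-148a-5p was 0.091, miR-193b-5p 0.043 and miR-101-1,2-3p 0.10, and without a low-count filter miR-101-1,2-3p was 0.00025. Leaving out a library gave -0.40 to 0.12 for miR-125b-3p, -0.21 to 0.11 for miR-148a-5p, -0.14 to 0.17 for miR-193b-3p, -0.46 to 0.29 for miR-193b-5p and -0.14 to 0.092 for miR-101-1,2-3p. By stock it gave -0.44 to 0.10 for miR-193b-3p, -0.21 to 0.046 for miR-222a-3p and -0.0093 to 0.18 for miR-101-1-5p. With no change of sign it gave, by colour, 0.014 to 0.17 for miR-125b-5p, -0.39 to -0.026 for miR-148a-3p, 0.073 to 0.17 for miR-222a-3p and 0.060 to 0.20 for miR-101-1-5p, and by stock -0.32 to -0.057 for miR-125b-5p, 0.28 to 0.83 for miR-125b-3p, 0.16 to 0.54 for miR-148a-3p, 0.13 to 0.32 for miR-148a-5p, 0.46 to 1.16 for miR-193b-5p and 0.013 to 0.24 for miR-101-1,2-3p. The log2 arm difference by colour was -0.10 to 0.48 for mir-125b, -0.42 to 0.58 for mir-193b and -0.14 to 0.0045 for mir-222a, and by stock -0.25 to 0.15 for mir-101-1, -1.15 to -0.33 for mir-125b and 0.69 to 1.38 for mir-193b. The cause was not tested. The count of 1 hairpin called by colour, mir-204, fell to 0 on leaving out Cui Hei or any of the white libraries. Without black F2 the count stayed at 1. It was also 0 with at least 200 reads per arm, which removes mir-204. The count of miRNAs at a log2 ratio of at least 1 between black F2 and white F2 was 5 as reported, 7 with library size alone, 4 with DESeq2 size factors and 8 with at least 10 reads, where rarer miRNAs enter. Under those scalings the members' single-library log2 ratios moved beyond their counting intervals in 8 of 16 values for black F2 over white F2 and 10 of 16 for Kaiya over Liancheng. For Cui Hei over the mean of the white breeds 5 of 16 left the range of its ratios to Kaiya and to Liancheng. For the remaining pairs, such as Cui Hei over Kaiya, these scalings were added after seeing the data. Low counts limit miR-193b-5p and miR-101-1-5p most.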
